A study of Mus musculus with 2 samples.

Results

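The genes described here are the CD4 and CD8 coreceptors of T cells and the factors that set which of them a T cell keeps: Cd4, Cd8a, Cd8b1, Zbtb7b, Runx1, Runx3, Cbfb, Tox and Satb1. They were taken as a list of 9 names, and every array probe whose gene name in the scanner files was one of them, or a synonym of one, was used. This gave 15 of the 39429 probes on the array. All 9 genes had a probe, 5 of them had several, and all 9 were among the 14874 measured genes, meaning that the KO signal, the WT signal or both of the gene's brightest probe were well above background on each array.

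The study compared Lamtor1-deficient (KO) with wild-type (WT) CD4+ T cells of C57BL/6J mice. Lamtor1 is a subunit of Ragulator, the complex that holds the kinase complex mTORC1 at the lysosome, and the series title sets the work in autoimmunity driven by CD4+ T cells. Naive CD4+CD62L+ splenic T cells of both genotypes were sorted magnetically and cultured for 5 days on plate-bound anti-CD3 with anti-CD28, IL-2 (50 ng/ml) and TGFβ (recombinant human, 1 ng/ml). RNA of 1 KO and 1 WT biological replicate was hybridised together on 2 two-colour Agilent arrays, with KO in Cy5 and WT in Cy3 on array 1 and the dyes exchanged on array 2. The labels' extraction protocol speaks of naive cells, so whether the RNA was taken before or after the culture is not settled by the labels. The sources used here do not give how the deletion was made, in which cells it acts, or how many mice gave the cells. Each genotype gave 1 extract, so no test was possible, and every ± below is the technical SD of the 2 arrays, which holds no spread between mice or cultures.

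During development in the thymus, T cells first carry both coreceptors and then keep only the one that fits their receptor: CD4, which binds MHC class II, in helper cells, or CD8, which binds MHC class I, in cytotoxic cells. The zinc finger factor ThPOK, encoded by Zbtb7b, keeps cells in the helper lineage and holds back cytotoxic genes, while Runx3 with its partner Cbfβ silences Cd4 and Zbtb7b and switches on Cd8 genes. In mature mouse CD4+ T cells this choice is held but can be loosened, as in CD4+ cells of the gut epithelium that lose ThPOK and gain Runx3 and CD8α.

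Of the 15 probes, 3 of 60 bases each are shown, for Cd4, Cd8a and Zbtb7b, because these genes carry the main differences. By position on the chromosome, each lies nearer the start of its gene than the brightest probe. The Zbtb7b probe of middle brightness also does so and is not shown. Both Cd8a probes are assigned to different transcripts. The 3 shown probes lie, in build mm9, at chr6:124817706-124817765 on the minus strand for Cd4, chr6:71323885-71323944 on the plus strand for Cd8a and chr3:89184324-89184383 on the minus strand for Zbtb7b. Each is given in the 5′ to 3′ direction as in the scanner files, with no part in capitals.
Cd4: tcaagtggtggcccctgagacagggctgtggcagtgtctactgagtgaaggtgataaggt
Cd8a: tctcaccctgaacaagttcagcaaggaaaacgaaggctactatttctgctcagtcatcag
Zbtb7b: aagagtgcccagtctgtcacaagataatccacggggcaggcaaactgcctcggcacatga

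Lamtor1 itself was lower in the KO extract, with normalized intensities of 270.0 and 281 in KO and 1054 and 1071 in WT (log2 ratio KO over WT −1.95 ± 0.03). Its probe was well above background in KO on both arrays. The labels do not state the deleted stretch, and if this probe lies outside it, its value checks nothing about the deletion. A normalized intensity is a probe's brightness after background correction and scaling of the 2 arrays, includes an added offset of 50, and was compared between RNAs for the same probe only. Of the 10 defining T cell markers, all 10 were measured, and their summed intensity was 99947 to 105844 in KO and 125779 to 126747 in WT. Markers of other cells moved as well. Beside their counts, 2.46% of all measured genes were at least 2-fold higher in KO on both arrays and 6.88% lower. Of 9 NK cell markers 8 were measured and 6 were at least 2-fold higher, with a summed intensity of 19304 to 21367 in KO and 1061 to 1081 in WT. Most of the KO sum came from Gzma, and the defining receptor gene Ncr1 was not measured. Klrb1c, Klra8, Klra4, Tyrobp and the uncalled Klre1 were well above background in WT on neither array. They were thus measured through KO alone, where they are high, so the count was partly set by the filter. Each gives only a bound: at least 2.18-, 2.26-, 2.19-, 4.30- and 1.28-fold higher in KO, in that order. Of 13 myeloid and dendritic markers 9 were measured, 3 of them higher and 1 lower, with sums of 36765 to 37272 in KO and 23620 to 23728 in WT. Most of both sums came from Siglech and Itgam, neither of them called. Siglech had 22984 and 23984 in KO against 12915 and 13691 in WT, and Itgam 9309 and 8275 against 5526 and 5286. Lyz1, S100a8 and the uncalled Lyz2 were measured through KO alone (at least 2.97-, 4.92- and 1.39-fold higher). S100a9 was well above background in WT on 1 array only. Of 8 B cell markers 2 were measured, with sums of 445 to 468 in KO and 310.1 to 364 in WT, and Ms4a1, Cd79a and Pax5 were not measured. Of 5 thymocyte markers 2 were measured: Cd1d1, an antigen-presenting molecule that other cells make too, was higher in KO (1.28 ± 0.20), and Dntt stood at −0.95 ± 0.0076. The defining thymocyte genes Rag1, Rag2 and Ptcra were not measured. Of the 7 γδ T cell markers 2 were found on the array under their listed names, and only Sox13 was measured, at 0.019 ± 0.023. In a bulk RNA a change in the share of a cell type and a change in RNA per cell cannot be told apart, and the part of other cell types in the coreceptor values was not tested.

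Across the members, Cd4 and Zbtb7b passed the 2-fold limit toward lower levels in KO on each array, no member was 2-fold higher, and the other 7 passed neither limit. Among all measured genes 6.88% were at least 2-fold lower and 2.46% at least 2-fold higher by the same rule. At the level of probes 3 of 15 were called lower and 0 higher, against 6.32% and 2.33% of the 18568 measured probes. All 15 member probes had the same sign on both arrays, 10 below and 5 above 0. Over all measured genes 44.3% were below 0 on both arrays and 38.6% above, so agreement of the arrays in sign was common. The technical SD of a member probe ran from 0.0092 to 0.27, against a median of 0.11 over all measured genes.

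**Figure D1:**
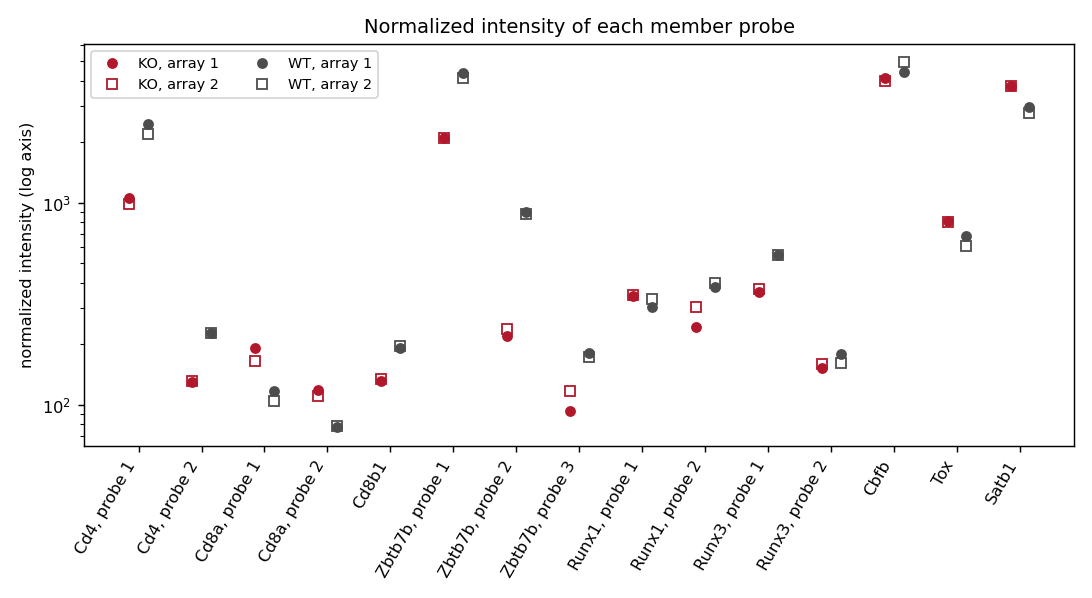
Normalized intensity (log axis) of each of the 15 member probes in KO (red, left) and WT (grey, right), with filled circles for array 1 and open squares for array 2; probes of a gene are numbered from the brightest. Both Cd4 probes and all 3 Zbtb7b probes lay lower in KO than in WT on both arrays, and both Cd8a probes lay higher in KO.

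Of the coreceptors, Cd4, which encodes the coreceptor for MHC class II and by which the cells were sorted, was lower in the KO extract. Its brightest probe, at chromosome 6, 124814711 to 124814770, had normalized intensities of 1058 and 987 in KO on arrays 1 and 2, against 2464 and 2186 in WT. KO lay below WT on both arrays, as it did for 44.3% of all measured genes. The log2 ratio was −1.18 ± 0.05, or 2.27-fold lower in KO, and 5.85% of measured genes had a lower ratio. The other Cd4 probe, whose sequence is given above, was spotted 10 times on each array and was dimmer, at 129 and 130.3 in KO against 226 and 227 in WT. Its ratio of −0.81 ± 0.0092 lay in the same direction but short of 2-fold. Over its 10 spots the log2 ratio ran from −0.92 to −0.64 on array 1 and from −0.96 to −0.65 on array 2, so every spot was lower in KO. An added offset pulls dim probes toward 0, and with an offset of 1 this probe stood at −1.17, close to the −1.19 of the bright probe under that setting. Both probes passed the 2-fold limit there. With the median over the probes of a gene in place of the brightest one, Cd4 stood at −0.99 and was not called.

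The genes for the α and β chains of CD8 lay on opposite sides of 0. Cd8a encodes the chain found in both forms of CD8, the αα homodimer and the αβ heterodimer, while Cd8b1 encodes the chain present in the heterodimer alone. The brighter Cd8a probe, at chromosome 6, 71328911 to 71328970, had intensities of 189.7 and 164 in KO against 118 and 105 in WT. Its log2 ratio was 0.67 ± 0.03, a 1.59-fold higher level in KO, and over the spots used (10 on array 1, 9 on array 2) it ran from 0.53 to 0.85 and from 0.60 to 0.77. All of these spots were higher in KO, and 93.1% of measured genes had a lower ratio. The second Cd8a probe, shown above, had 118 and 109.8 in KO against 77.2 and 78.7 in WT. It was well above background in KO on both arrays and in WT on neither, so it gives only a bound, at least 1.46-fold higher in KO. The single Cd8b1 probe, at chromosome 6, 71287231 to 71287290, had 131 and 133 in KO against 189.9 and 196 in WT, a log2 ratio of −0.55 ± 0.01.

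The Cd8a and Cd8b1 probes lie 41680 bases apart on the same chromosome, and the genes share enhancers. The Cd8a ratio exceeded that of Cd8b1 by 1.23 on array 1 and 1.20 on array 2. Their signs were opposite under all 10 ways of computing the ratios. These ways are not separate checks: all reuse the same arrays, and the software's processed signals equal the series matrix values. Whether Cd8a counts as 2-fold higher depended on the processing. It stood at 0.74 with no background subtraction and was not called, and at 1.08 with an offset of 1 and was called. With the scanner software's processed signals, which change both the background correction and the dye normalization, it stood at 1.46 and was called. Cd8b1 reached −1.04 with the processed signals and was not called under any setting at 2-fold.

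**Figure D2:**
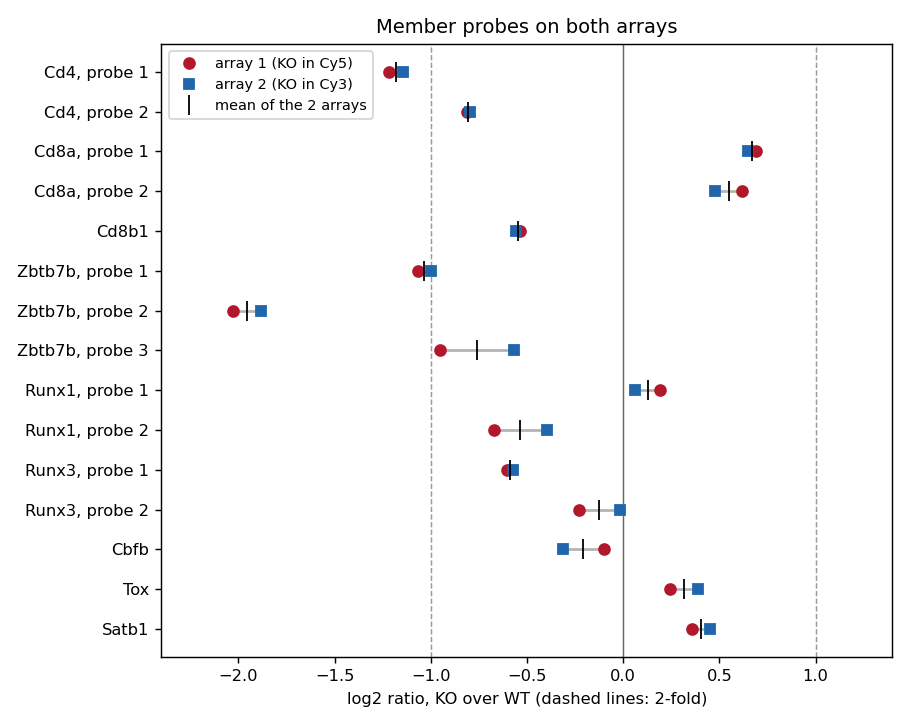
Log2 ratio of KO over WT for the 15 member probes on array 1 (KO in Cy5, circles) and array 2 (KO in Cy3, squares), with a tick at their mean and dashed lines at 2-fold. The 2 arrays placed each probe on the same side of 0; the second Zbtb7b probe lay farthest out, at −1.96, and the Cd8a probes lay farthest above 0.

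Among the regulators, Zbtb7b, which encodes ThPOK, was lower in the KO extract by all 3 of its probes, though by different amounts. The brightest, at chromosome 3, 89181569 to 89181628, had intensities of 2087 and 2079 in KO against 4374 and 4159 in WT. Its log2 ratio was −1.03 ± 0.05, just past the 2-fold limit on both arrays. The second, at chromosome 3, 89183230 to 89183289, had 219.6 and 238 in KO against 897 and 875 in WT, a log2 ratio of −1.96 ± 0.11 or 3.88-fold. Of all measured genes 1.39% had a ratio below that of this probe. The third, shown above, was dim, with 92.6 and 117 in KO against 179 and 173 in WT, and stood at −0.76 ± 0.27.

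All 3 Zbtb7b probes are assigned to the same transcript, at positions 3629, 1968 and 1223 in the order given, and the second lay below the first by 0.96 on array 1 and 0.88 on array 2. That gap is larger than the technical SD of either probe. With the software's processed signals the 3 probes stood at −0.98, −2.23 and −1.96, so the brightest one, farthest along the transcript, gave the smallest difference. There the brightest probe fell short of 2-fold and the other pair passed it. The brightest probe also missed the rule with an offset of 1, at −1.01, and under median centring, where it averaged −1.63 but passed the limit on array 2 alone. The second probe was called lower under each of these settings. Which exons the probes lie in was not determined here.

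The Runx genes encode DNA-binding subunits that work with Cbfβ, and none was called. Runx3, the factor of the cytotoxic lineage, had 363 and 372 in KO against 552 and 553 in WT at its brightest probe (chromosome 4, 134733846 to 134733905), a log2 ratio of −0.59 ± 0.02. The KO values lay below the WT values on both arrays, as for 44.3% of all measured genes. Its other probe (134731959 to 134732018) had 151 and 158 in KO against 177 and 160.0 in WT, and at −0.12 ± 0.15 its ratio did not differ from 0 beyond the technical spread. Neither Runx3 probe had a ratio above 0, whereas both Cd8a probes did. Whether the Runx3 and Cd8a values are linked was not tested.

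The 2 probes of Runx1, which silences Cd4 in immature thymocytes, disagreed in sign. The one farther along the gene (chromosome 16, 92604413 to 92604472) had 347 and 349 in KO against 304 and 334 in WT, a log2 ratio of 0.13 ± 0.09. The other (92605785 to 92605844), 1372 bases away and assigned to another transcript variant, had 241 and 304 in KO against 384 and 400.4 in WT, a log2 ratio of −0.53 ± 0.20. The first lay above the second by 0.86 on array 1 and 0.46 on array 2. A gene value for Runx1 thus depends on the probe: it was 0.13 by the brightest and −0.20 by the median of both. Under median centring the brightest probe stood at −0.23, but relative to the median of all measured genes there it stood at 0.14.

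Cbfb, which encodes the shared partner subunit that steadies Runx proteins on DNA, had 4139 and 3995 in KO against 4440.05 and 4956 in WT at its single probe (chromosome 8, 107741792 to 107741851). Its log2 ratio of −0.21 ± 0.15 was short of 2-fold and differed between arrays by about its own size.

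Tox and Satb1 act earlier in the lineage choice, Tox as an HMG-box factor needed for CD4 T cell development and Satb1 as a chromatin organiser that binds the enhancers of several coreceptor and lineage genes. Tox (chromosome 4, 6614755 to 6614814) had 808 and 799 in KO against 683 and 609 in WT, a log2 ratio of 0.32 ± 0.11. Satb1 (chromosome 17, 51879137 to 51879196) had 3799 and 3789.65 in KO against 2965 and 2768 in WT, a log2 ratio of 0.41 ± 0.07. Both were slightly higher in KO on each array, and both turned below 0 under median centring, at −0.16 for Tox and −0.19 for Satb1. The median over all 14874 measured genes moved to −0.37 there, and relative to that Tox stood at 0.21 and Satb1 at 0.19. Neither was called.

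**Figure D3:**
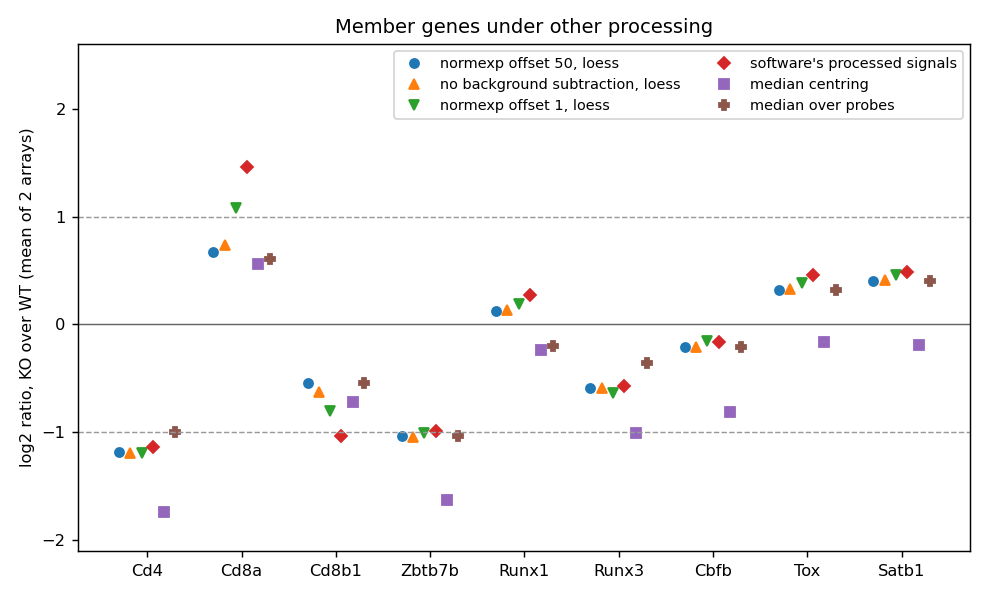
Log2 ratio of KO over WT (mean of the 2 arrays) of the 9 genes under 6 ways of processing, with dashed lines at 2-fold. Cd8a stood at 0.67 with an offset of 50, 1.08 with an offset of 1 and 1.46 with the software's processed signals, and median centring, which put the all-gene median at −0.37, placed Runx1, Tox and Satb1 below 0.

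The factors named above meet DNA at known short motifs, and the promoters of the members were searched for the Runx core. The motifs were TGTGGT and TGCGGT, with their complements ACCACA and ACCGCA on the other strand, and no match in a member's window overlapped another. The windows were those of RefSeq in build GRCm38.p6, 250 bases before to 50 bases after a transcription start. Windows were given for 6 members (Cbfb, Cd8a, Runx1, Runx3, Satb1 and Zbtb7b), 13 windows in all, some of them overlapping. Of these, 4 held at least 1 match and 2 held 2, against 22.4% and 2.86% of all 32851 windows with at least 1 and with 2 or more. The matches lay at −89 from a Zbtb7b start, −134 and −126 from a Runx3 start, 28 and 36 from a Runx1 start and 43 from the Cd8a start. The paired matches of Runx3 and Runx1 are each 8 bases apart from first base to first base. The parts before the start of the Zbtb7b window (chr3:89387672-89387921, minus strand) and of the Runx3 window (chr4:135120395-135120644, plus strand) are shown as the factor pair of the lineage choice, 5′ to 3′, with matches in capitals. A match describes these letters and says nothing about binding in these cells.
Zbtb7b: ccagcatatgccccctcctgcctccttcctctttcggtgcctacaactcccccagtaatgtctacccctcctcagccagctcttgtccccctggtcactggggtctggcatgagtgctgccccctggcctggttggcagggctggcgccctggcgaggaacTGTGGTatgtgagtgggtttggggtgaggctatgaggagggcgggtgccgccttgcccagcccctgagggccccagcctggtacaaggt
Runx3: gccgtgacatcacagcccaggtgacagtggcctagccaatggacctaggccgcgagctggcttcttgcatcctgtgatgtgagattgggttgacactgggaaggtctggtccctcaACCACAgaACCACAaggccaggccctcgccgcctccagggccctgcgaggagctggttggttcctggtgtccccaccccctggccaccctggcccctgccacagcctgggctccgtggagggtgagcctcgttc

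The genes around the members did not share one direction. Over all measured genes 6.88% were called lower and 2.46% higher. Among the 10 measured genes whose probes lie within 100 kb of the Cd4 probe, 2 were called lower and 1 higher, with a median of −0.04. Lag3, which encodes an inhibitory receptor related to CD4 that also binds MHC class II, stood at −0.57 ± 0.21 with its probe 39859 bases from that of Cd4. The called ones were the cell division gene Cdca3 (−2.47) and the glycolytic gene Tpi1 (−1.998), both lower, and Spsb2 (1.03), higher. Around Zbtb7b 3 of 10 genes were lower and 0 higher, with a median of −0.11: the cell cycle gene Cks1b (−2.31), the gene Pmvk of mevalonate metabolism (−1.88) and the metalloprotease gene Adam15 (−1.56). Around Cd8a the measured neighbours besides Cd8b1 ran from −0.19 (Rmnd5a) to 0.33 (Krcc1). The only measured neighbour of Runx3, the chloride channel family gene Clic4, was lower (−1.86 ± 0.09), and C230085N15Rik, 17485 bases from the Satb1 probe, was higher (1.22 ± 0.15) where Satb1 was not called.

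Of 40 other genes that act on the coreceptor loci or the lineage choice, 37 were measured, of which 3 were at least 2-fold higher, 1 lower and 33 neither. Their median was 0.06, against −0.02 over all measured genes, of which 2.46% were higher and 6.88% lower. Bcl6 had 759 and 669.7 in KO against 196 and 188 in WT (1.89 ± 0.09). It encodes the transcriptional repressor that marks follicular helper cells, a zinc finger relative of ThPOK. Stat5a, which carries IL-2 and IL-7 signals, had 2202 and 2322 in KO against 666 and 701 in WT (1.73 ± 0.0025). Ikzf2, which encodes Helios of regulatory T cells, had 832 and 689 in KO against 249 and 275 in WT (1.54 ± 0.29). The gene called lower was Dnmt1, the maintenance DNA methyltransferase, with 369 and 367 in KO against 1018 and 967 in WT (−1.43 ± 0.04).

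Several regulators of Zbtb7b and the coreceptor loci did not pass 2-fold on both arrays together. Id2, an inhibitor of E proteins, averaged 1.02 ± 0.09 but was below 2-fold on array 2 (0.95), and Gata3, needed for Zbtb7b expression in the thymus, averaged 0.95 ± 0.35, from 0.70 on array 1 to 1.20 on array 2. Id3 stood at 0.66 ± 0.19. Patz1, which encodes the repressor MAZR of Cd8 and Zbtb7b, stood at 0.53 ± 0.22. Myb, also needed for the CD4 lineage, stood at 0.04 ± 0.08. The HMG-box factor genes Tcf7 and Lef1, upstream of Zbtb7b in thymocytes, stood at −0.26 ± 0.05 and −0.11 ± 0.05. The lowest uncalled values were those of the E protein genes Tcf3 (−0.62 ± 0.08) and Tcf12 (−0.31 ± 0.23) and of Nfatc1 (−0.27 ± 0.12). Under median centring none of the 37 was called higher, and their median was −0.45, which is −0.07 from that of all measured genes.

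Lists of genes linked to the helper and the cytotoxic lineage were then set beside the coreceptors. Like the members and the other regulators, these were chosen with earlier results of these data known. Their counts beside the all-gene shares are therefore a description and no test. The helper list is not made of genes of helper cells alone, since Cd5 and Cd28 are also among the T cell markers above. Of 12 helper genes 10 were measured, of which 2 were lower, 1 was higher and 7 were neither (median −0.34). Among all measured genes 6.88% were lower and 2.46% higher by the same rule. Trat1, an adaptor of the T cell receptor, had 159.7 and 175 in KO against 1015 and 1147 in WT (−2.69 ± 0.03), and Cd5, a brake on receptor signalling that is also the 1 gene called lower among the 10 T cell markers above, had 3229 and 3351 in KO against 7432 and 6849 in WT (−1.12 ± 0.12). Cd5 was not called with an offset of 1 (−1.08) or under median centring, where it was short of 2-fold on array 1 (−0.99). The costimulatory receptor gene Tnfrsf4 averaged −1.04 ± 0.19 but was within 2-fold on array 1. Below 0 and uncalled were also Il21r (−0.62 ± 0.26) and the costimulator gene Icos (−0.55 ± 0.12). The gene called higher was Il6ra, a chain of the IL-6 receptor, with 4899.7 and 4939.95 in KO against 1503 and 1737 in WT (1.61 ± 0.14). Under median centring Il6ra averaged 1.01 and was not called, with 0.14 on array 2. Cxcr5 (0.34 ± 0.06) and Slamf1 (0.09 ± 0.0016) were the next highest, and Cd40lg and Il2 were not measured.

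Of 18 cytotoxic genes 16 were measured, of which 4 were higher, 2 lower and 10 neither. By the same rule 2.46% of all measured genes were higher and 6.88% lower. Because the list was chosen with earlier results of these data known, that comparison is no test. The median of the list was 0.35, or 0.59 above the median of all measured genes under median centring. The highest gene of the list was Gzma, which encodes a granule protease (5.45 ± 0.35). Itgae, which encodes the αE integrin chain and is a target of Runx3 in mouse CD8 T cells, had 1873 and 1706 in KO against 106 and 89.4 in WT (4.20 ± 0.08). The chemokine gene Xcl1 (4.03 ± 0.03) and the lectin receptor gene Klrd1 (1.78 ± 0.17) were higher as well, and of these only Klrd1 lost its call under median centring (1.34). The factor gene Tbx21, which encodes T-bet, had 204 and 211 in KO against 501 and 663 in WT (−1.47 ± 0.25), and the chemokine gene Ccl5 was also lower (−1.22 ± 0.26). The granule protein gene Nkg7 (1.04 ± 0.08), Ifng (0.98 ± 0.08) and Eomes (0.75 ± 0.24) were the highest uncalled values, and Prdm1 (−0.99 ± 0.12), the cystatin gene Cst7 (−0.61 ± 0.25) and Fasl (−0.37 ± 0.20) the lowest. Gzma and Eomes also stand among the NK markers given above, whose summed intensity was higher in KO. The cytotoxic list is thus not made of genes of CD8 T cells alone. The perforin gene Prf1 (0.41 ± 0.01) and Gzmb (0.18 ± 0.08) were within 2-fold. The higher genes of this list thus stood beside lower T-bet and Ccl5 in the same RNA.

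**Figure D4:**
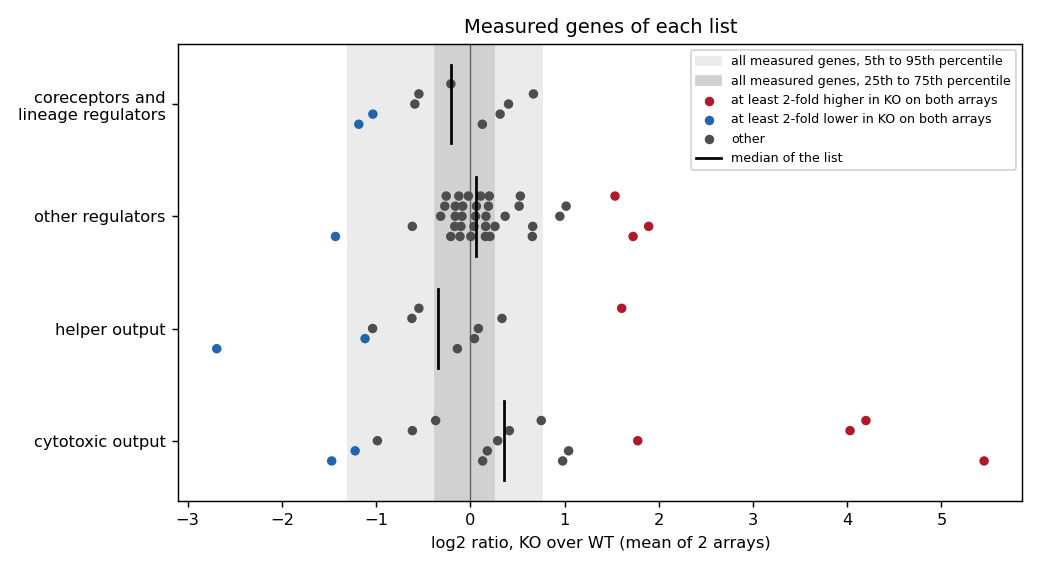
Log2 ratio of KO over WT (mean of the 2 arrays) of each measured gene in the 9 coreceptor and lineage genes, 37 other regulators, 10 helper and 16 cytotoxic genes; red and blue points were at least 2-fold higher or lower in KO on both arrays, black bars are list medians, and grey bands give the 5th to 95th and 25th to 75th percentiles of all measured genes. Cd4 and Zbtb7b lay within the 5th to 95th percentile band, while Gzma, Itgae and Xcl1 lay far above it.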

How the data were processed

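Per the file headers, the authors used Feature Extraction 10.7.3.1 (Agilent) on the images, whereas the submitters' processing notes give 10.5.1.1. The deposited scanner files hold uncorrected mean and local background intensities and, per the file headers, processed intensities that were background-subtracted and dye-normalized. The deposited log10 ratios of Cy5 over Cy3 in the series matrix equal those of the scanner files. Here, mean intensities were corrected with normexp (offset 50) and loess in limma 3.58.1 (R 4.3.3); marked outlier spots (206 on array 1, 214 on array 2) were left out, spots of a probe averaged, and ratios turned to KO over WT by the labelled dyes. No spot was saturated. The 2 arrays carry the same extracts and count as 1 replicate. A gene, taken by its brightest probe, was called at 2-fold or more in 1 direction on both arrays. For normalized intensities, arrays were scaled by Aquantile. For a bound, the dim RNA was given on each array the lowest signal of probes well above background, or the probe's own if higher. Of 39429 probes 26055 were named by accession, 3195 by symbol and 930 by synonym, and 9249 kept the file's name. Positions are the files' (mm9). The 12 alternatives and their main effects stand in the closing section. Genes of the 3 lists were named if called, or among the 3 highest or lowest, besides Gata3, Myb, Tcf7, Lef1 and Patz1; Prf1, Gzmb and the neighbours were added after their values were seen. The normalization was tested on simulated data. Members and lists were chosen with earlier results of these data known. No probe was checked for cross-hybridisation.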

Additional observations from a re-analysis of the deposited data

How the results depend on the processing

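No paired analysis was possible because each genotype gave 1 extract and nothing was tested; precision is limited by having 2 arrays. The software's processed signals, which equal the series matrix values, gave 1 member higher (Cd8a 1.46) and 1 lower (Cd4), with Zbtb7b at −0.98, Cd8b1 at −1.04, Runx1 at 0.28, Tox at 0.46 and Satb1 at 0.49; list medians were 0.15 (regulators), −0.27 (helper) and 0.68 (cytotoxic), and 867 measured genes were higher and 1614 lower, against 366 and 1024. An offset of 1 also gave 1 member higher (Cd8a 1.08) and 1 lower, with Cd8b1 at −0.80 and Runx3 at −0.63, 1 helper gene lower, medians of 0.11 (regulators) and 0.55 (cytotoxic), and 609 genes higher. With no background subtraction Cd8a stood at 0.74 and Cd8b1 at −0.62. Median centring gave Cd4 −1.74, Cd8a 0.56, Cd8b1 −0.72, Zbtb7b −1.63, Runx1 −0.23, Runx3 −1.004, Cbfb −0.81, Tox −0.16 and Satb1 −0.19, with 1 member lower, 0 regulators and 0 helper genes higher, 1 helper gene lower, medians of −0.45 (regulators), −0.87 (helper) and 0.21 (cytotoxic), and 111 genes higher and 881 lower. The median over probes gave Cd4 −0.99, Cd8a 0.61, Runx1 −0.20 and Runx3 −0.36, 1 member lower and a regulator median of 0.075. The array with KO in Cy5 alone gave 556 genes higher and medians of 0.10 (regulators) and −0.26 (helper), and the array with KO in Cy3 alone a regulator median of 0.083. Requiring signal in both RNAs gave medians of 0.087 (regulators) and 0.41 (cytotoxic), and no filter on dim probes gave −0.11 (helper). At 1.5-fold 1 member (Cd8a) and 5 regulators were higher, and 1009 genes were higher and 2008 lower. The cytotoxic count of 4 higher and 2 lower became 6 and 3 with the processed signals, with an offset of 1, with KO in Cy3 alone and at 1.5-fold. It became 4 and 3 with no background subtraction and 3 and 2 under median centring. The regulators called higher rose from 3 to 4 with the processed signals, with an offset of 1 and on each array alone. Keeping outlier spots moved none of these. The cause of these shifts was not tested. Cd4 and Zbtb7b stayed below 0 and Cd8a above 0 under the 9 alternatives that change a gene's ratio.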
